A study of Mus musculus with 6 samples.

Results

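The 35 genes described here encode chaperones, disulfide isomerases, stress sensors, degradation factors and translocon subunits of the endoplasmic reticulum (ER). They were chosen by name, with earlier results of these data known. They were found in the deposited count tables by symbol and Entrez identifier, and all 35 were present among the 22488 genes listed. RNA was sequenced from whole livers of male wild-type C57BL/6 mice aged 6 to 8 weeks. In the LPS group (n = 3) lipopolysaccharide, a cell wall component of Gram-negative bacteria, was injected into the peritoneum at 6 mg/kg. In the control group (n = 3) the injection was 200 µl of the salt buffer HBSS, although another label field of these samples reads "No treatment". All mice were fasted for 16 h and lived at 25 °C on standard chow, and the time from injection to sampling is not given in the sources used here. Per the title, the study asks whether LPS lowers signalling by peroxisome proliferator-activated receptors and the storage of lipid droplets in liver, a question these genes do not address directly.

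Hepatocytes make most plasma proteins, and each of those proteins enters the ER through the SEC61 channel, folds with the help of chaperones and disulfide isomerases, and is sent back to the cytosol for destruction if folding fails. When unfolded proteins pile up, 3 membrane sensors (IRE1, ATF6 and PERK) start the unfolded protein response. IRE1, the product of Ern1, splices the Xbp1 transcript so that it encodes an active transcription factor, and cleaved ATF6 and spliced XBP1 then raise transcription of chaperone and degradation genes. Counts per gene do not separate the spliced from the unspliced Xbp1 transcript.

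Libraries held 11488525 to 15437785 counted reads in LPS livers and 12577993 to 20282004 in control livers. Spearman correlations of log2 CPM over genes tested were 0.982 to 0.989 within groups and 0.835 to 0.844 between them. Values below are CPM (each gene's reads relative to its library total, scaled by the trimmed mean of M values). Changes are log2 fold changes of LPS over control, each with a standard error (SE), from edgeR's quasi-likelihood test with adjustment over 12078 genes. Nothing in the labels says that the livers came from separate mice, so the p values rest on a spread that may be technical. In bulk tissue, fewer cells of a type and less RNA per cell cannot be told apart. Hepatocyte markers went mostly down, with 6 of 8 lower (75.0%, beside 31.0% of all genes tested) and 1 higher. Their summed level was 66433 to 91225 CPM in LPS livers and 106760 to 120946 CPM in control livers. Neutrophil markers summed to 202 to 247 CPM in LPS livers and 4.36 to 7.83 CPM in control livers. All 8 tested of 9 were higher, beside 31.3% of all genes tested. Some of them, such as Ngp with 2 to 4 reads in control livers, passed the filter on low counts only through LPS livers. That largely fixed their call in advance, so this contrast is a description. The part of cell composition in the changes below was not tested.

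Most of the 35 genes rose in LPS livers. At an adjusted p under 0.05, 31 of 35 passed the test, beside 62.3% of all genes tested. Of the 35, 29 were higher (82.9%) and 2 were lower (5.71%), beside 31.3% higher and 31.0% lower among all genes tested. Of the 35, 20 were called and rose at least 2-fold, which 16.0% of all genes tested did. The median log2 fold change was 1.36 over the 35 genes and 0.01 over all genes tested. Values of the 2 groups did not overlap in 33 of the 35, beside 67.4% of all genes tested. All 35 passed the filter on low counts, so none is missing from these figures. Because the list was chosen with earlier results known, its contrast with all genes is a description.

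**Figure D1:**
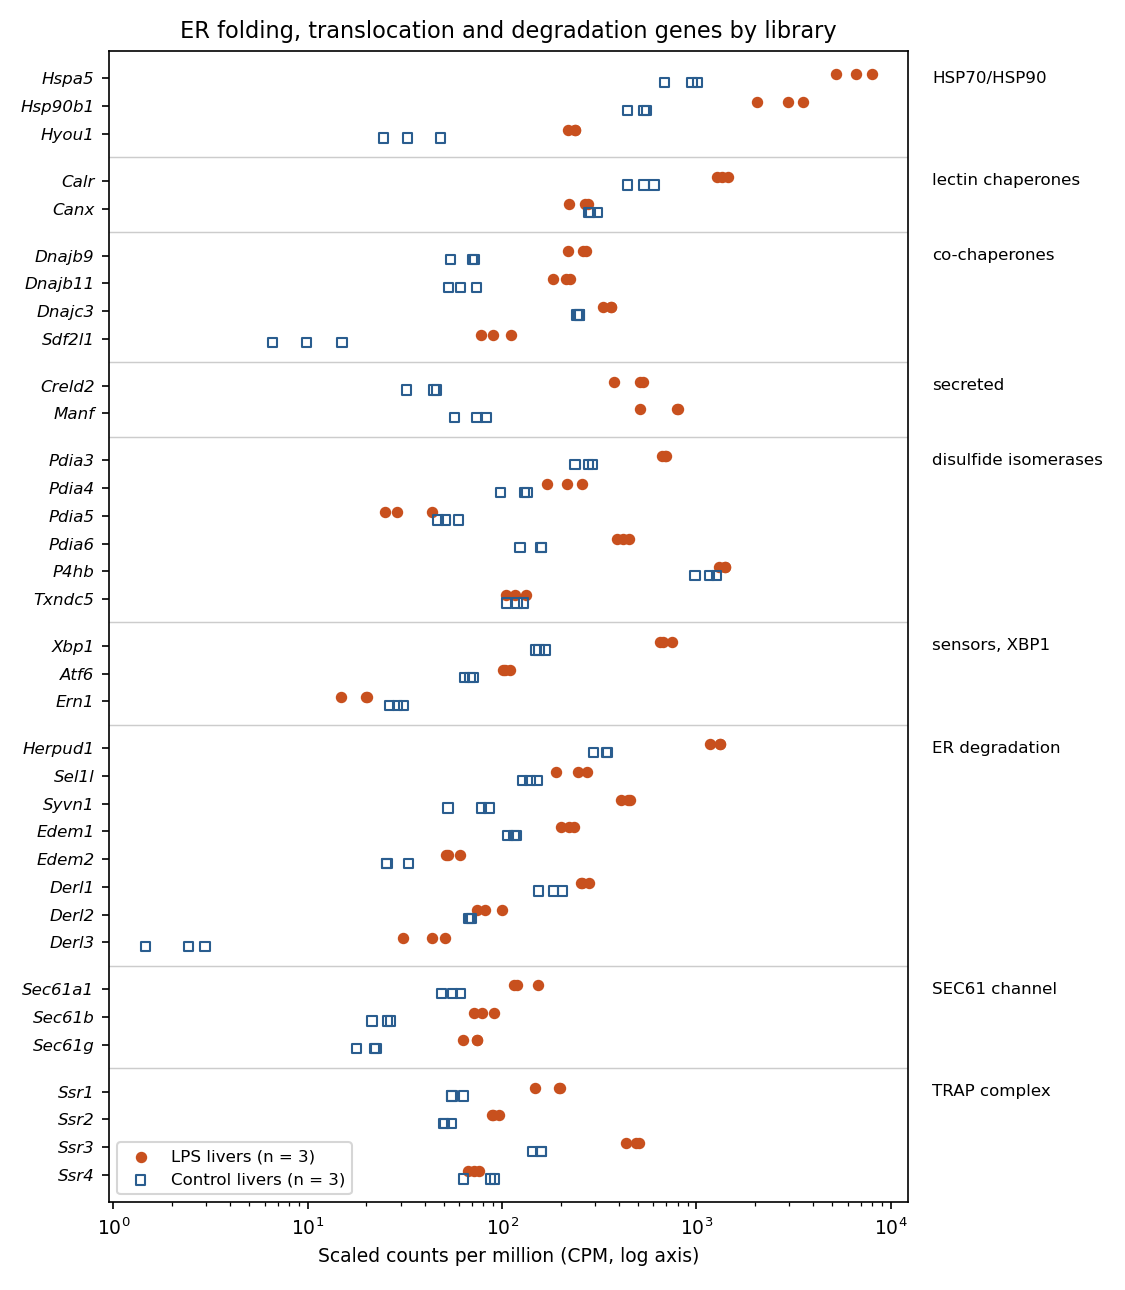
CPM (log axis) of each of the 35 genes in the 3 LPS livers (filled circles) and the 3 control livers (open squares), grouped by role. Only Txndc5 and Ssr4 have overlapping groups, and Canx, Pdia5 and Ern1 lie lower in all LPS livers.

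The summed level of the 35 genes was 21219, 23286 and 17742 CPM in LPS livers, against 6624, 5528 and 6512 CPM in control livers. The 3 LPS sums thus stood above all control sums, with means 3.34-fold apart. They made up 2.07% of scaled counts in LPS livers and 0.622% in control livers. Hspa5 alone held 29.6% to 34.3% of that sum in LPS livers and 12.4% to 15.6% in control livers.

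The promoters of these genes were also searched for the letters that ATF6 and XBP1 are known to read. What part these factors have in the changes was not tested. The ER stress response element (ERSE) was searched as CCAAT and CCACG with 9 bases between them, its second form (ERSE-II) as ATTGG and CCACG with 1 base between them, and the core that XBP1 binds as TGACGTGG, all on both strands. Windows ran from 250 bases before to 50 after each RefSeq gene start (GRCm38.p6) and were found for 29 of the 35 genes. ERSE stood in 9 of these 29 windows (31.0%), beside 0.137% of 27025 genes with a window and 0.177% of 9624 tested genes with one. ERSE-II stood in 2 of the 29 (6.90%), beside 0.0831% of tested genes. The core TGACGTGG stood in 1 window, that of Txndc5, beside 0.998% of tested genes. ERSE was first described in promoters of ER chaperones, so its share in a list of such genes is no independent finding.

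The matches of these 11 genes are printed here because the genes include Derl3, Creld2 and Hspa5, which rose most or were most abundant. Each run is 5′ to 3′ on the strand of the gene, with 10 bases on either side of the match, and capitals mark both parts of the element. An element on the opposite strand reads CGTGG and then ATTGG.
Hspa5 (chr2:34772015-34772053, plus strand): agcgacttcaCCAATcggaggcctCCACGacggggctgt
Hsp90b1 (chr10:86705523-86705666, minus strand, 2 matches): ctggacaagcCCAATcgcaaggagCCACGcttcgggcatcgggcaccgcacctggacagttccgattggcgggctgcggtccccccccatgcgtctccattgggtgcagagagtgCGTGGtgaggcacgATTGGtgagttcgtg
Calr (chr8:84847065-84847103, minus strand): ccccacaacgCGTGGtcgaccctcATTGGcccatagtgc
Canx (chr11:50325790-50325828, minus strand): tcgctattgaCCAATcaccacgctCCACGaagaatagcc
Dnajc3 (chr14:118937817-118937855, plus strand): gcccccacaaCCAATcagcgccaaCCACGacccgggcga
Creld2 (chr15:88819510-88819548, plus strand): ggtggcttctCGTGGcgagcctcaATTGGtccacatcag
Pdia6 (chr12:17266481-17266519, plus strand): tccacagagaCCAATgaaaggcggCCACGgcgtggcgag
Syvn1 (chr19:6046522-6046560, plus strand): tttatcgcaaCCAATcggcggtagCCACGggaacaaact
Derl3 (chr10:75893232-75893270, plus strand): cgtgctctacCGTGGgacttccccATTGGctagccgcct
Dnajb11, ERSE-II (chr16:22857842-22857872, plus strand): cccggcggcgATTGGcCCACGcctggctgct
Herpud1, ERSE-II (chr8:94386367-94386397, plus strand): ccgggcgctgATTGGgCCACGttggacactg

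Of the 11 genes with either element, 10 rose and Canx did not pass the test, with a median log2 fold change of 1.95. The window held neither in 18 genes, of which 13 rose, 2 fell and 3 did not pass, and their median was 0.96. The ranges overlap widely, from -0.19 to 4.23 with an element and from -0.69 to 3.17 without, and no test was made of this difference. Sdf2l1 and Xbp1 rose strongly with neither set of letters in the window, which says only that these exact letters are not there. Of the 17 tested genes with an ERSE, 9 are among the 35 and 8 are not. Of those 8, 2 rose (Pan2 and Spats2l), 2 fell (Acacb and Acnat2) and 4 did not pass. Of the 4 that did not pass, Ero1b, an oxidase that recharges disulfide isomerases, is also on the list of other folding factors used below (0.26, adjusted p = 0.207). Of the tested genes with an ERSE-II outside the 35, 4 rose and 2 fell. Among all genes tested 31.3% were higher and 31.0% lower, and these counts are too small to set apart from those shares.

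**Figure D2:**
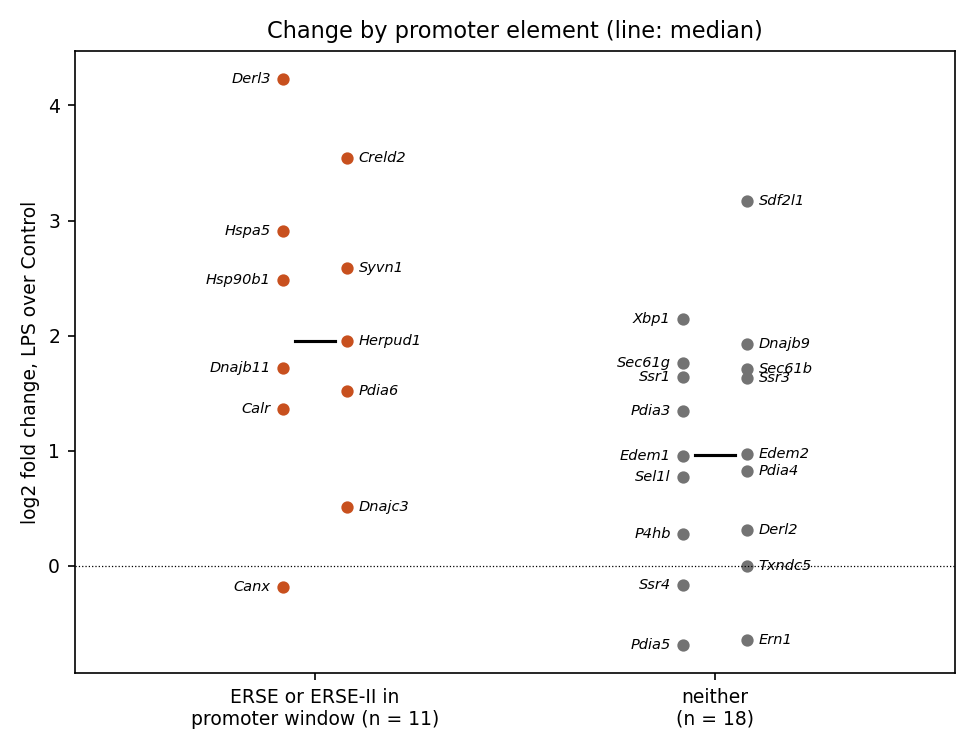
Log2 fold change (LPS over control) of the 29 genes with a promoter window, split by whether the window holds ERSE or ERSE-II (11 genes) or neither (18 genes), with short lines at the medians of 1.95 and 0.96. The groups overlap, with Derl3 highest and Canx lowest among genes with an element.

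The HSP70 and HSP90 chaperones of the ER lumen rose 5.57-fold to 7.51-fold, and all 3 were called. Hspa5 (Entrez 14828, chromosome 2, 34771970 to 34777547) encodes BiP, which binds unfolded chains and holds the stress sensors inactive. It had 6620, 7987 and 5252 CPM in LPS livers, against 948, 684 and 1013 CPM in control livers. Every LPS liver stood far above the highest control liver, and the log2 fold change was 2.91 (SE 0.20, adjusted p = 2.8e-08). Hsp90b1 encodes GRP94, the HSP90 of the ER, which folds integrins and Toll-like receptors. It stood at 2974, 3518 and 2039 CPM in LPS livers, against 537, 441 and 554 CPM in control livers (2.48, SE 0.19). Hyou1, a large HSP70 relative that exchanges nucleotide on BiP, had 237, 238 and 218 CPM in LPS livers, against 48.2, 24.6 and 32.7 CPM in control livers (2.72, SE 0.20). LPS values of Hyou1 lay close together with a coefficient of variation of 4.98%, while control values spread at 34.1%.

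Of the lectin chaperones, which hold glycoproteins until their sugar tags are trimmed, the soluble one rose and the membrane-bound one did not. Calr, calreticulin, had 1350, 1451 and 1268 CPM in LPS livers, against 605, 441 and 538 CPM in control livers (1.36, SE 0.15, adjusted p = 2.36e-06). Canx, calnexin, had 268, 278 and 220.5 CPM in LPS livers, against 284, 280.0 and 308 CPM in control livers (-0.19, SE 0.13, adjusted p = 0.22). All LPS values of Canx lay below the control values by a small margin, and the difference did not pass the test although its promoter window carries an ERSE.

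All 4 genes for J-domain co-chaperones and their partner SDF2L1 rose. Sdf2l1, which binds J-domain proteins in the lumen and keeps substrates soluble, had 110.5, 90.2 and 77.4 CPM in LPS livers, against 15, 6.56 and 9.81 CPM in control livers (3.17, SE 0.24, adjusted p = 7.92e-08). Dnajb9, ERdj4, hands misfolded chains to degradation and brings BiP to IRE1, and it averaged 249.7 ± 27.0 CPM in LPS livers and 65.5 ± 9.76 CPM in control livers (SD, n = 3 each, log2 fold change 1.93). Dnajb11, ERdj3, is a secreted co-chaperone of BiP and rose by a similar amount (1.72, SE 0.14). Dnajc3, p58IPK, both assists BiP and inhibits the kinase PERK, and it rose least of the 4, at 1.42-fold (0.51, SE 0.12, adjusted p = 0.00172).

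The 2 small secreted stress proteins were among the strongest risers. Creld2, an ER protein with EGF-like repeats whose release follows calcium loss and stress, had 513, 532 and 377 CPM in LPS livers, against 44.6, 32.1 and 46.0 CPM in control livers. That is an 11.6-fold rise (3.54, SE 0.18, adjusted p = 1.89e-09). Manf, a protein of the ER lumen with cytoprotective activity when secreted, had 792, 800.0 and 510 CPM in LPS livers, against 82.7, 56.7 and 74.3 CPM in control livers (3.30, SE 0.20, adjusted p = 8.25e-09). LPS replicate 3 was the lowest of the LPS livers in both, and still far above every control liver.

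The disulfide isomerases split. Pdia3, Pdia4 and Pdia6 rose, Pdia5 fell, and P4hb and Txndc5 did not pass the test. Pdia6 had 450.5, 421 and 389 CPM in LPS livers, against 159, 123 and 158 CPM in control livers (1.52, SE 0.14, adjusted p = 4.71e-07). Pdia3, ERp57, works on glycoproteins held by calreticulin and calnexin and on MHC class I, and it averaged 683 ± 15.9 CPM in LPS livers and 269 ± 28.4 CPM in control livers (1.34, SE 0.13). Pdia4, ERp72, rose by less and with a wide spread, at 169, 256.5 and 215 CPM in LPS livers and 134, 98.1 and 130.4 CPM in control livers (0.82, SE 0.17, adjusted p = 6.76e-04).

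Pdia5 had 28.7, 24.9 and 43.5 CPM in LPS livers, against 51.2, 46.8 and 59.4 CPM in control livers (-0.69, SE 0.18, adjusted p = 0.00461). Its groups came close, since LPS replicate 3 lay just under the lowest control liver. P4hb encodes PDI itself, also the beta subunit of collagen prolyl 4-hydroxylase and of the lipid transfer protein that loads apolipoprotein B. It was the most abundant of the 35 genes per kilobase in control livers and averaged 1374 ± 56.6 CPM in LPS livers and 1139 ± 144 CPM in control livers (0.27, SE 0.14, adjusted p = 0.0989). Txndc5 averaged 117.5 ± 14.3 CPM in LPS livers and 117.8 ± 11.6 CPM in control livers, with groups that overlap (adjusted p = 0.987).

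Among sensors and transcription factors, Xbp1 and Atf6 rose and Ern1 fell. Xbp1 (chromosome 11, 5520659 to 5525893) had 675, 652 and 746 CPM in LPS livers, against 155, 149 and 167 CPM in control livers. That 4.41-fold rise had the smallest SE relative to its size among the sensors (2.14, SE 0.13, adjusted p = 7.13e-09), with coefficients of variation of 7.05% in LPS livers and 5.76% in control livers. Atf6 averaged 105 ± 4.68 CPM in LPS livers and 67.6 ± 3.51 CPM in control livers (0.63, SE 0.12, adjusted p = 2.94e-04). Ern1, the kinase and nuclease that splices Xbp1, ran from 14.8 to 20.2 CPM in LPS livers, against 26.3 to 31.1 CPM in control livers (-0.65, SE 0.15, adjusted p = 0.00229). All 3 LPS values of Ern1 lay below the control values, while all LPS values of its substrate Xbp1 lay above.

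**Figure D3:**
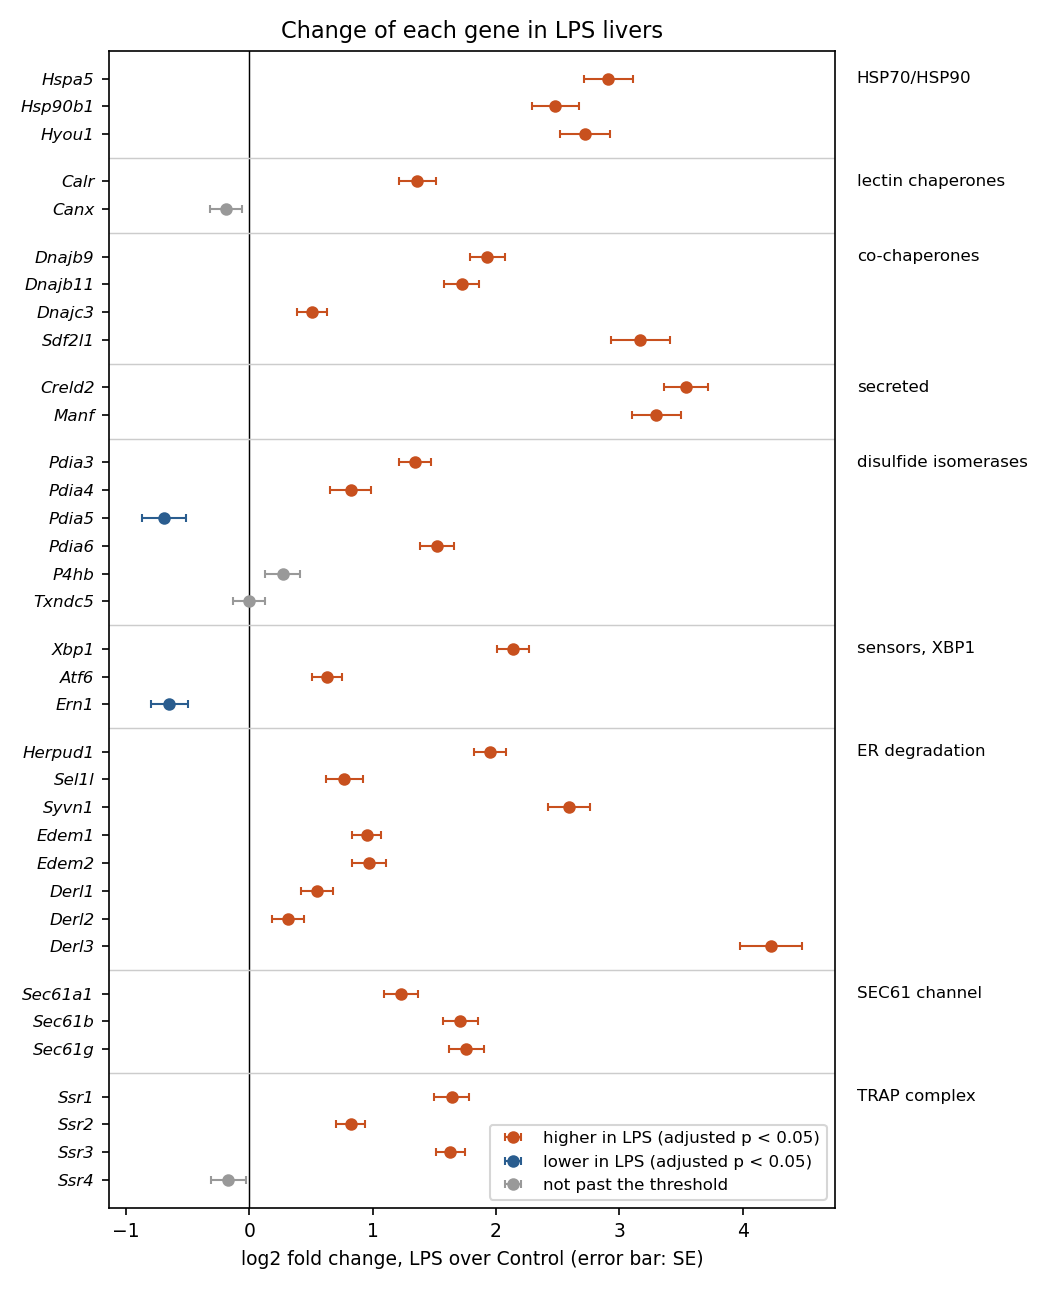
Log2 fold change of each gene (LPS over control, points) with its SE (bars), by role and coloured by call. The 29 genes that rose run from Derl2 at 0.31 to Derl3 at 4.23, and Pdia5 (-0.69) and Ern1 (-0.65) are the 2 that fell.

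All 8 genes of ER-associated degradation rose, by 1.24-fold to 18.8-fold. Derl3, the least abundant of the 35 genes per kilobase in control livers, encodes a derlin, a membrane protein of the channel that moves misfolded proteins out. It had 43.6, 50.6 and 30.8 CPM in LPS livers, against 2.96, 1.46 and 2.44 CPM in control livers (4.23, SE 0.25, adjusted p = 7.86e-09). The lowest LPS liver stood far above the highest control liver. Derl3 is known as a gene of plasma cells as well as of stressed tissue, and what part such cells have in its level was not tested. Markers of plasma and B cells had few reads in both groups. Their sum was 2.47 to 4.50 CPM in LPS livers and 6.93 to 9.29 CPM in control livers, with 2 of 5 tested markers lower and 0 higher, and Tnfrsf17 at 0 in all 6 libraries.

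The other derlins rose far less. Derl1 averaged 264 ± 14.2 CPM in LPS livers and 180.3 ± 25.1 CPM in control livers (0.55, SE 0.13, adjusted p = 0.0024). Derl2 had 99.3, 82.1 and 74.3 CPM in LPS livers, against 69.0, 69.5 and 67.0 CPM in control livers (0.31, SE 0.13, adjusted p = 0.0483). Its call ended under most other settings, for instance at 0.17 without LPS replicate 1 (adjusted p = 0.294).

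Syvn1 encodes HRD1, the ubiquitin ligase at the centre of this machinery, and had 453, 445 and 407 CPM in LPS livers, against 85.7, 52.6 and 78.5 CPM in control livers (2.59, SE 0.17, adjusted p = 2.05e-08). Sel1l, the adaptor that stabilises HRD1 and brings it substrates, rose less, with 247, 274 and 190.4 CPM in LPS livers, against 151, 127 and 139 CPM in control livers (0.77, SE 0.15). Herpud1 (Entrez 64209, chromosome 8, 94386438 to 94395377), a short-lived scaffold of the HRD1 complex, had 1318, 1328 and 1179 CPM in LPS livers, against 348, 343 and 296 CPM in control livers (1.95, SE 0.13, adjusted p = 2.84e-08). It was the most abundant degradation gene per kilobase in both groups. The 2 mannosidase-like proteins that mark glycoproteins for disposal rose nearly 2-fold, with log2 fold changes of 0.95 for Edem1 (SE 0.12) and 0.97 for Edem2 (SE 0.14).

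The 3 subunits of the SEC61 channel, through which new chains enter the ER, all rose. Sec61a1, the pore itself, had 120, 115 and 154 CPM in LPS livers, against 61.2, 48.8 and 55.4 CPM in control livers (1.23, SE 0.14, adjusted p = 5.47e-06). The small subunits Sec61b (1.71, SE 0.14) and Sec61g (1.76, SE 0.14) rose 3.27-fold and 3.38-fold. Of the translocon-associated protein (TRAP) complex, which helps some signal sequences open the channel, 3 of 4 subunits rose. Ssr3 had 489, 507 and 435 CPM in LPS livers, against 144, 159 and 159 CPM in control livers (1.63, SE 0.12, adjusted p = 8.72e-08). Ssr1 rose by as much (1.64, SE 0.14) and Ssr2 by 1.76-fold (0.82, SE 0.12). Ssr4 had 71.5, 67.1 and 75.9 CPM in LPS livers, against 87.0, 91.3 and 63.3 CPM in control livers (-0.17, SE 0.14, adjusted p = 0.314). Control replicate 3 lay apart from the other two in Ssr4, and without it Ssr4 was lower in LPS livers (-0.34, adjusted p = 0.0463).

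Ratios between partners of one complex or pathway were compared within each library. A ratio of CPM per kilobase does not depend on library scaling, and 11 pairs were taken after their values had been seen. Most pairs set a gene that rose strongly against one that rose less, did not pass the test or fell, so a difference in their ratio follows largely from that choice. The ratios are given as a description, without p values. An exact permutation test of 3 against 3 livers cannot give a p under 0.1. Syvn1 to Sel1l stood at 3.16, 2.80 and 3.69 in LPS livers, against 0.977, 0.714 and 0.973 in control livers, so the ligase stood above its adaptor in LPS livers and below it in control livers. Derl3 to Derl1 averaged 0.378 ± 0.0750 in LPS livers and 0.0314 ± 0.0138 in control livers (SD, n = 3 each). Calr to Canx averaged 10.5 ± 0.722 in LPS livers and 3.56 ± 0.556 in control livers. Ssr3 to Ssr4 averaged 1.37 ± 0.187 in LPS livers and 0.403 ± 0.0961 in control livers, while in CPM, without division by length, Ssr3 stood above Ssr4 in both groups. Xbp1 to Ern1 averaged 130.0 ± 18.3 in LPS livers and 18.7 ± 1.46 in control livers. Sec61b to Sec61a1 was the pair that overlapped, at 2.62 to 4.28 in LPS livers and 2.17 to 2.97 in control livers.

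**Figure D4:**
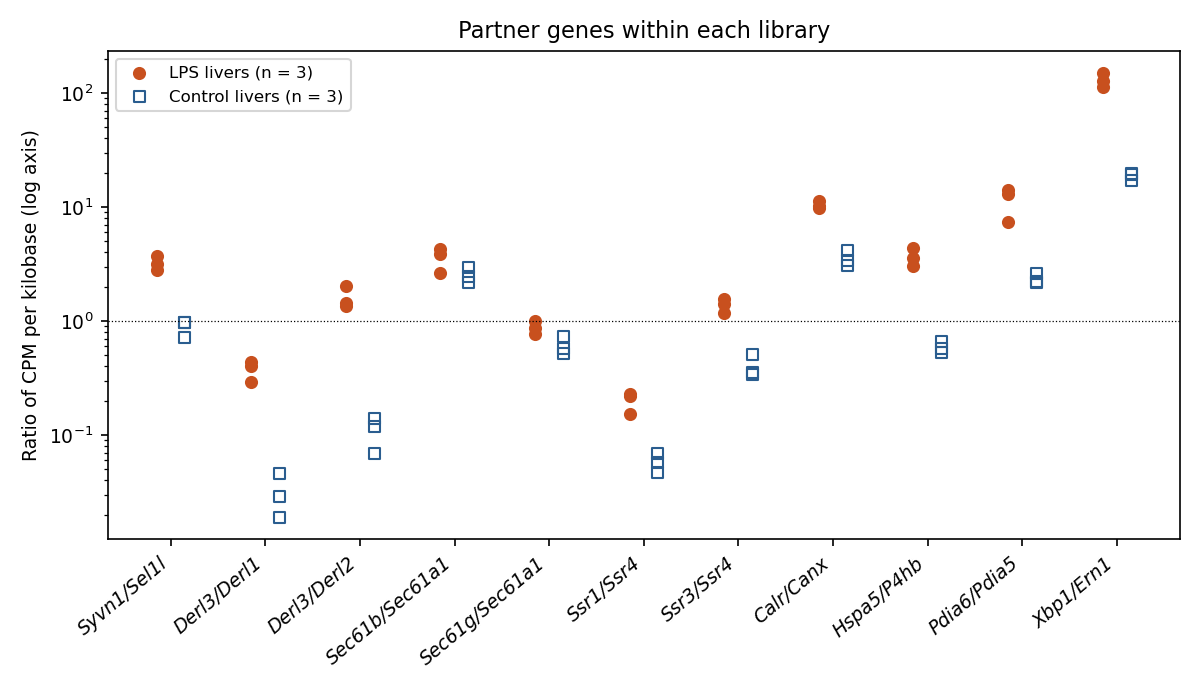
Ratio of CPM per kilobase (log axis) of 11 gene pairs in each LPS liver (filled circles) and control liver (open squares). LPS ratios lie above control ratios in all pairs but Sec61b to Sec61a1, where the groups overlap, and the gap is widest for the pairs with Derl3.

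The order of levels among the 35 genes also changed. Per kilobase of merged GENCODE exon, the highest in LPS livers were Hspa5 (1763 CPM per kb), Hsp90b1 (1007), Herpud1 (653), Calr (621) and P4hb (480.0 CPM per kb). In control livers the order was P4hb (398 CPM per kb), Calr (242), Hspa5 (235), Hsp90b1 (181) and Herpud1 (169 CPM per kb). Calr and Hspa5 do not differ beyond their spread in control livers. The lowest were Ern1 at 2.25 CPM per kb in LPS livers and Derl3 at 1.73 CPM per kb in control livers. Merged exons include long alternative ends, which lowers the value per kilobase of genes such as Ssr1 but leaves its change between groups as it is.

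The spread between livers was itself shared by many of these genes. Among the 29 that rose, LPS replicate 3 was the lowest LPS liver in 22 (75.9%), against 31.2% of all genes tested. Control replicate 2 was the lowest control liver in 21 of the 29 (72.4%), against 32.6% of all genes tested. Genes that move together are not independent, so these shares are a description. In the same livers the summed level of hepatocyte markers was highest in LPS replicate 3 (91225 CPM) and in control replicate 2 (120946 CPM). Alb made up most of both sums (65833 and 88246 CPM), and single markers differed in their order. Ttr was highest in these same libraries, while Trf was lowest in LPS replicate 3 and Cps1 in control replicate 2. What part these levels have in the spread was not tested. The coefficient of variation over the 35 genes had a median of 9.83% in LPS livers and 12.2% in control livers.

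Other genes of the secretory pathway were taken from 7 lists. Of 125 tested of 126, 72 rose (57.6%) and 22 fell (17.6%), beside 31.3% higher and 31.0% lower among all genes tested. Their median log2 fold change was 0.42. Their summed level was 1.27-fold higher in LPS livers (13401 to 13884 CPM) than in control livers (10499 to 10910 CPM). Of the genes of targeting and translocation, 16 of 18 were higher (88.9%) and 1 lower (5.56%), with a median of 0.86. They include Srprb, which anchors the receptor for ribosomes bound to the signal recognition particle (1.96, SE 0.14), the signal peptidase subunit Spcs2 (1.31, SE 0.12) and the receptor subunit Srpr, the most abundant (0.79, SE 0.13). Sec62, which serves translocation after synthesis and ER recovery, fell (-0.48, SE 0.13, adjusted p = 0.00471).

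Of 12 subunits of the oligosaccharyltransferase, which adds N-glycans, 8 rose (66.7%) and 1 fell (8.33%), beside 31.3% and 31.0% of all genes tested. Rpn1 (1.02, SE 0.12), the most abundant in LPS livers but not in control livers, and Ostc (1.06, SE 0.14) led, and Magt1 was the one that fell (-0.40, SE 0.14, adjusted p = 0.0214). Other folding factors had 14 of 28 higher and 5 lower, among them the HSP70 relative Hspa13 (1.77), Txndc11 (1.66) and the sulfhydryl oxidase Qsox1, the most abundant at 1421 ± 245 CPM in LPS livers and 471 ± 51.5 CPM in control livers (1.59). Cnpy2 (-1.43) and the glucosidase gene Mogs (-0.71), whose product makes the first cut of the N-glycan, fell.

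Of the degradation factors outside the 35 genes, 11 of 24 were higher (45.8%) and 8 lower (33.3%), beside 31.3% and 31.0% of all genes tested. The share that was lower is thus near that of all genes. The ubiquitin ligase Rnf185 (1.77) and Selenos (1.58), which links the membrane complex to the ATPase p97, rose. The ligase Rnf5 (-2.02) and Aup1 (-1.04) fell. ER exit and retrieval had 13 of 22 higher (59.1%) and 4 lower (18.2%). Tmed9, a cargo receptor of the p24 family (1.99), the COPII coat gene Sec23b (1.90) and the cargo receptor Surf4, the most abundant (1.01), rose, while Sar1b (-1.34) and Sec23a (-1.02) fell. Kdelr2, a receptor that returns escaped chaperones with a KDEL end, was named after its value was seen (1.47, adjusted p = 1.54e-07).

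**Figure D5:**
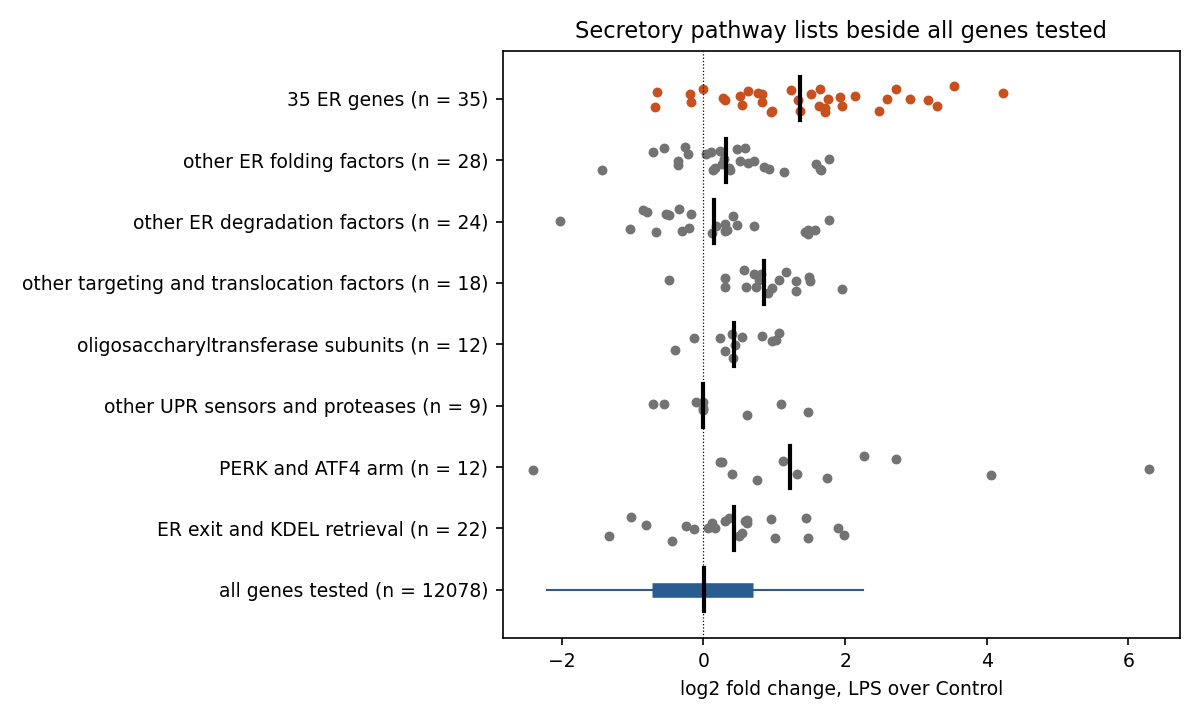
Log2 fold change (LPS over control) of the 35 ER genes, of the tested genes of 7 other lists and of all 12078 genes tested, where points are genes and black bars are medians. For all genes tested, the thick bar runs from the 25th to the 75th percentile (-0.73 to 0.70) and the thin line runs from the 5th to the 95th percentile (-2.21 to 2.25).

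The other sensors and proteases of the unfolded protein response had 3 of 9 higher (33.3%) and 2 lower (22.2%). These shares stand beside 31.3% and 31.0% of all genes tested, and the median was -0.01. The PERK gene Eif2ak3 (1.10, SE 0.18) and Creb3l2 (1.47, SE 0.16), a membrane-bound factor related to ATF6, rose. Mbtps1, the protease that makes the first cut in ATF6, fell (-0.71, SE 0.13, adjusted p = 3.26e-04), as did Bfar, a ubiquitin ligase of the ER membrane (-0.55, SE 0.13, adjusted p = 0.00288). Tmbim6, the most abundant, averaged 1205 ± 40.9 CPM in LPS livers and 1214 ± 39.9 CPM in control livers (adjusted p = 0.953). Of 12 genes of the PERK and ATF4 arm 7 rose (58.3%) and 1 fell (8.33%). Ddit3, CHOP, averaged 64.3 ± 8.44 CPM in LPS livers and 9.71 ± 0.526 CPM in control livers (2.72, SE 0.14), and Chac1, which degrades glutathione, had the largest rise (6.29, SE 0.22). Atf5, the most abundant of this arm in control livers but not in LPS livers, fell to 143 ± 18.6 CPM in LPS livers, against 753 ± 51.0 CPM in control livers (-2.40, SE 0.14).

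Positions of 6 of the 35 genes overlap another protein-coding gene (Manf, Pdia3, Pdia6, Txndc5, Syvn1 and Derl2). Overlap was taken over whole gene spans, introns included, and shared exon sequence was not measured. The strand setting of the counting is not given in the sources used here, so reads from a shared stretch may not have been told apart. For Manf the other gene (Rbm15b) is on the same strand, where a strand setting would not separate them.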

How the data were processed

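Per the submitters' processing notes, bcl2fastq 2.0, HISAT2, StringTie, DESeq2, limma and the build mm10 were used, with no role given for each tool. The authors deposited 1 table per library of whole-number read counts, not normalized. The counting tool, gene annotation, strand setting and handling of multiply mapped reads are not given in the sources used here. Of 22488 lines, 20722 were named by Entrez identifier from RefSeq (GRCm38.p6), 879 by a complete symbol and 887 as deposited. Dnajc3, whose identifier was deposited in rounded form, was found by its symbol.

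The 2-sided quasi-likelihood F test of edgeR 4.0.16 (R 4.3.3) set LPS against control over the whole table, after TMM scaling and a filter on low counts. The filter (filterByExpr) asked for the CPM that equals 10 reads at the median library size in 3 libraries, and for 15 reads in total. Benjamini-Hochberg adjustment covered 12078 genes, with a threshold of 0.05, and the method was tested on simulated data. SE is the log2 fold change over the root of F. Lengths and positions are from GENCODE M21 (basic, GRCm38), and promoters from RefSeq.

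The genes and lists were chosen with earlier results of these data known. All 35 genes are given. From each other list the rule names the 2 genes with the smallest adjusted p in each direction and the one with the highest mean CPM over all libraries. A gene that this rule names is not reported here. Alternatives were other scalings, no filter, DESeq2 1.42.0, limma 3.58.1 with voom weights, a replicate block and leaving out each library. Within groups, pairs of libraries differed beyond sampling noise, with a chi-square of 12.3 to 33.1 per degree of freedom.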

Additional observations from a re-analysis of the deposited data

How the results depend on the processing

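The call of Derl2 ended under 10 of 12 alternatives, with log2 fold changes from 0.17 to 0.34. It held with limma (voom weights) and without LPS replicate 3. Ssr4 passed the threshold in 1, without control replicate 3 (-0.34). Txndc5, which was never called, changed sign with a library left out, between -0.10 and 0.06. The other 32 genes kept their direction and their side of the threshold in all 12. Of the 35 genes, 28 or 29 rose and 2 fell (3 fell without control replicate 3). Over all genes tested, leaving out a library gave 3372 to 3635 higher and 3510 to 3615 lower. Scaling by library totals gave 3439 higher and 3981 lower, with a median over the 35 genes of 1.30.

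Sample titles number the libraries of each group as repeat experiments. They do not say that equal numbers belong together, so the numbers were not taken as pairs. Pearson correlations of deviations from group means were -7.45e-04, 0.104 and 0.0352 for libraries with the same number. For different numbers they ran from -0.121 to 0.0741. With the replicate block 28 of the 35 genes rose and 2 fell, beside 3780 higher and 3766 lower over all genes, and Derl2 (0.30, adjusted p = 0.0522) was the one gene of the 35 whose call it ended. Precision rests on 3 livers a group, and the least counted gene, Derl3, had 30 to 38 reads in control livers.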
